A study of Mus musculus with 9 samples.

Results

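Across the whole table of 48795 genes, 35 genes of the Yap/Tead pathway were followed in mouse colon organoids. They comprised 27 reported target genes of YAP and TEAD and 8 regulators, which were Yap1, Wwtr1, Tead1, Tead2, Tead3, Tead4, Lats1 and Lats2. The members were a named list, matched to the table by mouse gene symbol, and all 35 were found. Colon organoids are epithelial cultures grown in Matrigel from isolated crypts. Here they were kept in WENR, a medium with Wnt3a, EGF, Noggin and R-spondin that holds the cells in a stem cell state, and the study's methods also name a p38 inhibitor (SB202190), an ALK5 inhibitor (A83-01) and nicotinamide in this medium. All 9 libraries share these conditions. WT organoids came from wildtype littermates and AHR KO organoids from Vil-Cre Ahr fl/fl mice, in which Cre driven by the Villin promoter deletes the aryl hydrocarbon receptor (AHR) in intestinal epithelium, both on a C57BL/6 background. Organoids received vehicle (DMSO) or 5 nM FICZ, a high affinity ligand of AHR, for 4 h. The groups were WT with DMSO (n = 2), WT with FICZ (n = 3), AHR KO with DMSO (n = 2) and AHR KO with FICZ (n = 2). The sources used here give neither the age nor the sex of the mice, nor whether libraries with the same number under DMSO and FICZ came from the same mouse.

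YAP and its paralogue TAZ (encoded by Wwtr1) are coactivators that have no DNA-binding domain of their own and act on genes through the TEAD factors. The kinases LATS1 and LATS2 at the end of the Hippo cascade phosphorylate YAP and TAZ, which are then held in the cytoplasm or degraded. In the intestine this pathway is known for its part in epithelial repair after injury, and several of its target genes encode proteins that feed back on YAP. AHR is a transcription factor that moves to the nucleus on binding a ligand such as FICZ.

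The values are named as normalised by the authors and were read here as normalised counts, that is, estimated read counts per gene scaled between libraries. Their sum per library lay between 23177058 and 25033827. The spacing of the low values gives an estimated depth of 21500000 to 30100000 reads, so a gene with a value of 10 rests on roughly that number of reads. A gene was tested when its mean over the 9 libraries was 10 or more (12741 genes), with limma on log2(normalised count + 1), and was called at an adjusted p below 0.05 (Benjamini-Hochberg over all genes tested, two-sided). Of the 35 members, 30 passed this filter: 22 of the 27 targets and all 8 regulators. In values given per library, the order is WT DMSO replicates 2 and 3, WT FICZ replicates 1, 2 and 3, AHR KO DMSO replicates 1 and 3, and AHR KO FICZ replicates 1 and 3.

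Group names follow the labels. The deletion removes part of the Ahr gene and the count covers the whole gene, so its level does not check the deletion: Ahr stood at 783 to 858 in the 5 WT libraries and at 1346 to 1443 in the 4 AHR KO libraries. Cyp1a1, a detoxifying enzyme gene that AHR switches on, reached 6988 to 7958 with FICZ in WT and 100.3 to 139 with FICZ in AHR KO. It was between 0 and 5.84 in the DMSO libraries of both genotypes, so that FICZ raised it in AHR KO as well (log2 change 5.91 ± 0.78, SE; limma adjusted p = 0.00209). Epithelial markers were high in every library (summed level 300600 to 329400 over 9 genes, with none missing). Of 10 fibroblast markers, 9 never exceeded 10 and Lum was listed at 0 throughout. Of 6 immune markers, 4 never exceeded 10, with Ptprc and Lyz2 at 0 throughout, while Cd68 was at 475 to 712 and Csf1r at 5.86 to 17.4. Of 4 endothelial markers, 3 never exceeded 10 and Vwf was at 14.7 to 56.0.

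The 250 bases before the RefSeq transcription start (assembly GRCm38.p6) are shown for 4 targets that were higher in AHR KO organoids under both treatments. They are Ccn1 and Ajuba, which also responded to FICZ, and Ptpn14 and Igfbp3, which did not pass the test for FICZ. Each is given 5′ to 3′ on the gene's own strand, with capitals for the letters GGAATG or their reverse complement CATTCC, the core bound by TEAD factors, and GCGTG or its reverse complement CACGC, the core bound by AHR with its partner ARNT. The Ccn1 stretch is chr3:145649986-145650235 (minus strand), that of Ajuba is chr14:54577662-54577911 (minus strand), that of Ptpn14 is chr1:189728018-189728267 (plus strand) and that of Igfbp3 is chr11:7213924-7214173 (minus strand).
Ccn1: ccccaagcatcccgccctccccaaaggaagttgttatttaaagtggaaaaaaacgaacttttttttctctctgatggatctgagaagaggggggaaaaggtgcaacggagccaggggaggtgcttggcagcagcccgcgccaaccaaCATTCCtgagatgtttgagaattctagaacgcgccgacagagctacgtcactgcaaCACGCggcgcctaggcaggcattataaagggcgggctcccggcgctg
Ajuba: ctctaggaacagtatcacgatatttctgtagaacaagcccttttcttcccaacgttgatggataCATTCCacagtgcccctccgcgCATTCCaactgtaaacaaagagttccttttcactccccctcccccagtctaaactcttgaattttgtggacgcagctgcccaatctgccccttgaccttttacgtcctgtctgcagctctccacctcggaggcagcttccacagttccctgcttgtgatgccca
Ptpn14: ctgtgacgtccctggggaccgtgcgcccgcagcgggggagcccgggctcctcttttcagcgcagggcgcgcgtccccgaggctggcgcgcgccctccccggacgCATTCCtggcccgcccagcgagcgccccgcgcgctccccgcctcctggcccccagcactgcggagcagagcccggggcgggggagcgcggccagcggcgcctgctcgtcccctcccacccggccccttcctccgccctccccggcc
Igfbp3: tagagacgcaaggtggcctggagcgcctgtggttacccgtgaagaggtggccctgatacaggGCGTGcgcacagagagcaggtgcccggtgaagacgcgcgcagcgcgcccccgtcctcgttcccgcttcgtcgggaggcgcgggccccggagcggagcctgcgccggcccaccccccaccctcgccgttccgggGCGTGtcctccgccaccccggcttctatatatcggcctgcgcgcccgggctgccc
In Ccn1 a TEAD core lay 103 bases before the start and an AHR core 47 bases before it. In Ajuba there were TEAD cores 186 and 164 bases before the start and no AHR core. Ptpn14 held a TEAD core 146 bases before the start. Igfbp3 held AHR cores 188 and 55 bases before the start and no TEAD core. RefSeq windows running from 250 bases before to 50 after a start were at hand for 25 of the 35 members (35 windows, some genes having several). The TEAD core was found on either strand in 14 of these 35 windows, belonging to 12 members: Ajuba, Amotl2, Ankrd1, Axl, Ccn1, Crim1, Lats2, Ptpn14, Sgk1, Tead3, Wwtr1 and Yap1. It was in 14.7% of all 32851 windows of this length. The AHR core was in 15 of the 35 windows and in 32.4% of all windows. Windows of 1 gene can overlap, so these window counts can hold the same site more than once. The TEAD core and the AHR core of Wwtr1 each lay in 2 overlapping windows. The letters TGANTCA, the site bound by AP-1 factors, which often lie beside TEAD sites, were in the F3 window alone among the members and in 7.81% of all windows. No match of one motif overlapped a match of another in the members' windows. A match describes the sequence only. Ccn2, Arhgef17, Asap1, Dlc1, Dock5, Fjx1, Mybl1, Nuak2, Tead1 and Tead4 had no window in the sequence table used.

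The first comparison asked how Yap/Tead targets stood in AHR KO organoids without ligand. Under DMSO, 11 of the 22 tested targets were called higher in AHR KO than in WT organoids, and 1 (F3) lower. Over all genes tested, 9.05% were called in this comparison (4.21% higher and 4.83% lower). The member list was chosen with earlier results of these data known, so its shares describe the list and are no test of it. With FICZ in both genotypes, 12 targets were called higher and 1 (Nt5e) lower, beside 20.0% of all genes tested (9.48% higher and 10.5% lower). The 11 targets called higher were the same genes under both treatments, namely Ccn1, Ccn2, Ankrd1, Amotl1, Amotl2, Ajuba, Crim1, Igfbp3, Mybl1, Myof and Ptpn14, and Arhgef17 joined them with FICZ. Igfbp3 is in these counts although it passed the filter only through its AHR KO values. The 12 targets called under DMSO became 6 without AHR KO DMSO replicate 1 or AHR KO DMSO replicate 3 and 7 without WT DMSO replicate 2. Of all genes tested, 3.52% were called higher under both. The median log2 difference of the tested targets was 0.40 under DMSO and 0.41 with FICZ, and that of all genes was -0.01 and -0.004. For 10 targets every AHR KO library lay above every WT library, an order found in 7.76% of all genes tested, and no target showed the opposite order, found in 7.82%. The 2 genotype comparisons use different libraries but the same estimate of the spread. In whole organoids, a change in the share of cells that express a gene and a change in RNA per cell cannot be told apart.

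**Figure D1:**
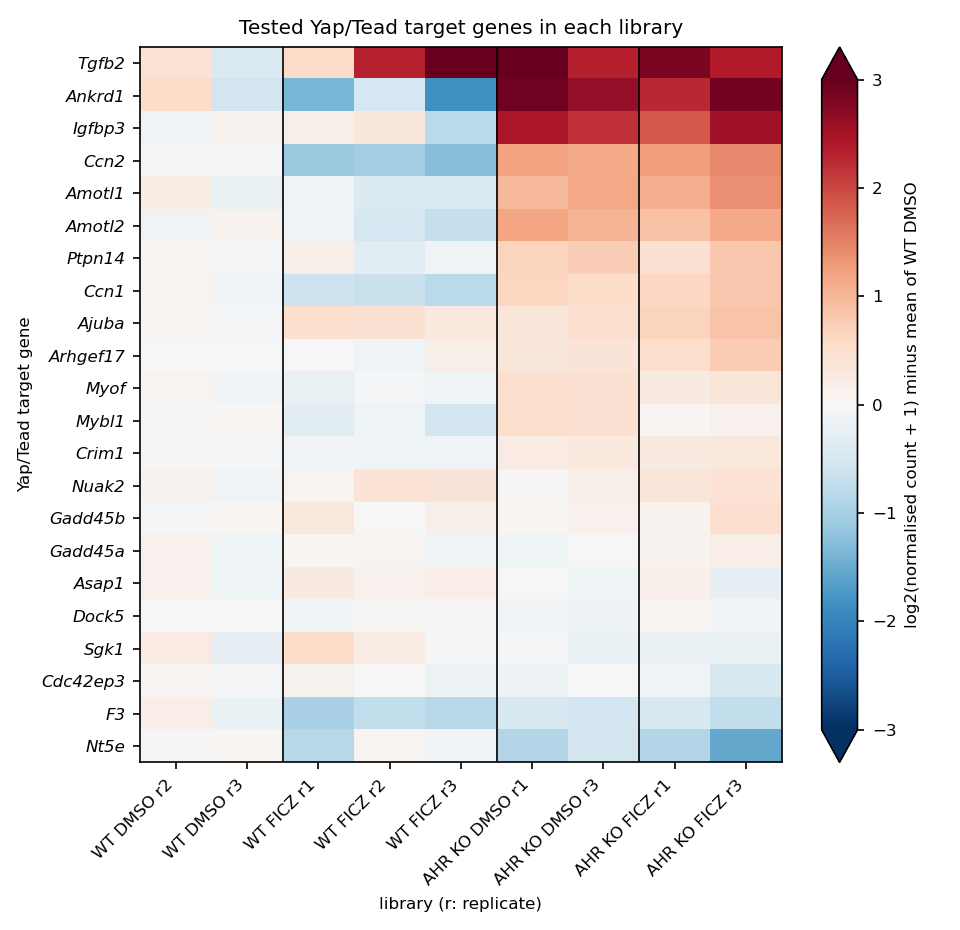
Each row is 1 of the 22 tested target genes and each column 1 of the 9 libraries. The colour is log2(normalised count + 1) minus the mean of the WT DMSO libraries, limited to 3 in either direction, with genes ordered by their mean in AHR KO. From Ankrd1 down to Crim1 the 4 AHR KO columns are mostly red, while Ccn1, Ccn2 and F3 are blue in the 3 WT FICZ columns.

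Some features of the cultures moved with genotype as well. Of the 9 epithelial markers, 4 were called lower in AHR KO under both treatments: Cdx1, Cdx2, Krt20 and Epcam. Of all genes tested, 4.83% were called lower under DMSO and 10.5% with FICZ. Across all libraries, Cdh1, Krt8, Krt19 and Vil1 overlapped between genotypes. Cdx1, a factor of intestinal identity, was at 2808 to 4040 in WT and 1276 to 1634 in AHR KO, and Krt20, a keratin of mature cells, at 853 to 1149 and 429 to 692. Krt18 was higher in AHR KO with FICZ (0.38 on the log2 scale, adjusted p = 0.00575, limma). The summed fibroblast markers ranged from 59.4 to 112 in WT and from 21.8 to 42.8 in AHR KO, and Pdgfrb, the only one above the filter, was at 55.7 to 110.1 and 15.3 to 34.5. The endothelial marker Vwf was at 24.45 to 55.98 in WT and at 14.7 to 18.5 in AHR KO, and was not called under either treatment. The part of these differences in the target genes was not tested.

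Among the secreted targets, Ccn1 and Ccn2, which encode the matricellular proteins CYR61 and CTGF and are the best known readouts of YAP activity, differed both between genotypes and with FICZ. Ccn2 stood at 2467 and 2370.1 in WT DMSO, at 1108.5, 1174 and 992.5 in WT FICZ, at 5616 and 5338 in AHR KO DMSO and at 5792 and 6618 in AHR KO FICZ. No group overlapped another, and the order from low to high was WT FICZ, WT DMSO, AHR KO DMSO, AHR KO FICZ, of which only the last pair was not called different. AHR KO exceeded WT 2.26-fold in the ratio of means under DMSO (log2 difference 1.18 ± 0.09, SE; limma adjusted p = 6.66e-05). With FICZ the ratio was 5.68 (log2 difference 2.51 ± 0.08, SE; limma adjusted p = 1.29e-07). Ccn1 was at 999.8 and 891.5 in WT DMSO, at 609, 591 and 541 in WT FICZ, at 1476 and 1384 in AHR KO DMSO and at 1443 and 1649 in AHR KO FICZ. The groups ran in the same order, with the AHR KO groups overlapping each other and neither overlapping WT. The ratio of AHR KO to WT was 1.51 under DMSO (log2 difference 0.60 ± 0.09, SE; limma adjusted p = 0.00352) and 2.66 with FICZ (1.41 ± 0.09 on the log2 scale; limma adjusted p = 4.9e-06). Igfbp3, a binding protein of insulin-like growth factors, was low: 8.67 and 10.2 in WT DMSO, 10.8, 12.2 and 4.94 in WT FICZ, 56.2 and 46.3 in AHR KO DMSO, and 36.5 and 58.4 in AHR KO FICZ. All AHR KO libraries lay above all WT libraries, by 2.32 ± 0.44 (log2, SE) under DMSO and 2.27 ± 0.40 with FICZ (limma adjusted p = 0.00972 and 0.00313). Both WT groups had a mean below 10, so Igfbp3 passed the filter through its AHR KO values, and the call under DMSO was lost without WT DMSO replicate 2, AHR KO DMSO replicate 1 or AHR KO DMSO replicate 3 (adjusted p up to 0.0822).

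Of the nuclear targets, Ankrd1, an ankyrin-repeat cofactor that is induced in stretched and injured tissue, showed the widest called difference between genotypes. It was at 36.0 and 16.0 in WT DMSO, 8.76, 16.4 and 5.98 in WT FICZ, 187 and 155 in AHR KO DMSO and 119 and 185 in AHR KO FICZ. WT and AHR KO libraries did not overlap. The log2 difference was 2.77 under DMSO (95% interval 1.73 to 3.81, limma adjusted p = 0.00534) and 3.82 with FICZ (2.87 to 4.77, adjusted p = 0.000172). Without AHR KO DMSO replicate 1 the call under DMSO was lost (adjusted p = 0.0561). Mybl1, the transcription factor A-MYB, stood at 317 and 344 in WT DMSO, 267, 300.1 and 225 in WT FICZ, 476 and 456 in AHR KO DMSO, and 344 and 362 in AHR KO FICZ. Within each treatment the AHR KO libraries were above the WT libraries, yet across treatments they overlapped. Its calls were close to the threshold (limma adjusted p = 0.045 under DMSO and 0.0327 with FICZ), and they were lost under 11 and 9 of 21 alternative settings.

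Several targets act back on the pathway. The angiomotin-like proteins AMOTL1 and AMOTL2 and the phosphatase PTPN14 bind YAP and keep it from the nucleus, and the LIM protein AJUBA instead binds and restrains LATS. All 4 genes were called higher in AHR KO under both treatments. Amotl1 was at 612 and 443 in WT DMSO, 484, 394 and 395 in WT FICZ, 1024 and 1164 in AHR KO DMSO, and 1116 and 1344 in AHR KO FICZ. Amotl2 was at 629.8 and 723 in WT DMSO, 629.3, 475 and 420.2 in WT FICZ, 1544 and 1369 in AHR KO DMSO, and 1240.2 and 1484 in AHR KO FICZ. For both genes each AHR KO library exceeded each WT library, with ratios of means of 2.07 and 2.15 under DMSO and 2.90 and 2.68 with FICZ (limma adjusted p between 6.79e-05 and 0.00293). Ptpn14 rose from 1287 and 1187 in WT DMSO to 1966 and 2066 in AHR KO DMSO. With FICZ it was at 1397, 971 and 1142 in WT and at 1692 and 2181 in AHR KO, so that no AHR KO library fell within the range of WT. The log2 difference was 0.71 ± 0.16 (SE; limma adjusted p = 0.0196) under DMSO and 0.73 ± 0.14 (adjusted p = 0.00502) with FICZ. Leaving out any of the 4 DMSO libraries ended the DMSO call of Ptpn14, as did a block for replicate number (log2 difference 0.623 to 0.764 over all alternatives). Leaving out AHR KO FICZ replicate 3 ended its call with FICZ. Ajuba was at 1433 and 1301 in WT DMSO, 1932, 1879.9 and 1679.6 in WT FICZ, 1758 and 1932 in AHR KO DMSO, and 2185 and 2476 in AHR KO FICZ. WT FICZ and AHR KO DMSO overlapped, so Ajuba did not separate by genotype across treatments. Within a treatment the log2 difference was 0.43 ± 0.09 (SE; limma adjusted p = 0.0167) under DMSO and 0.35 ± 0.08 (adjusted p = 0.0155) with FICZ. The call was lost without WT DMSO replicate 3 or AHR KO DMSO replicate 3 under DMSO, and without WT FICZ replicate 3 or AHR KO FICZ replicate 3 with FICZ (adjusted p up to 0.147).

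Myof, a ferlin of membrane repair, was at 11224 and 10000.9 in WT DMSO, 9042, 10131 and 9674 in WT FICZ, 14922 and 14429 in AHR KO DMSO, and 12819.8 and 13530.3 in AHR KO FICZ. All AHR KO libraries were above all WT libraries, 1.38-fold in the ratio of means under DMSO and 1.37-fold with FICZ (limma adjusted p = 0.00305 and 0.000917). Crim1, a transmembrane protein that binds bone morphogenetic proteins, was at 1276 and 1211 in WT DMSO, 1173, 1133 and 1161 in WT FICZ, 1485 and 1526 in AHR KO DMSO, and 1505 and 1546 in AHR KO FICZ. This narrow separation corresponds to log2 differences of 0.28 ± 0.06 (SE; limma adjusted p = 0.0188) and 0.40 ± 0.06 (adjusted p = 0.000675). Leaving out any of the 4 DMSO libraries ended the call of Crim1 under DMSO, as did a block for replicate number (log2 difference 0.238 to 0.313 over all alternatives). Arhgef17, an exchange factor for small GTPases, was at 983 and 999.7 in WT DMSO, 1001, 908 and 1114 in WT FICZ, 1248 and 1303 in AHR KO DMSO, and 1434 and 1682 in AHR KO FICZ. Its 4 AHR KO libraries also lay above all WT libraries, but the test passed only with FICZ (0.63 ± 0.09 on the log2 scale, SE; limma adjusted p = 0.00105), with an adjusted p of 0.0541 under DMSO.

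**Figure D2:**
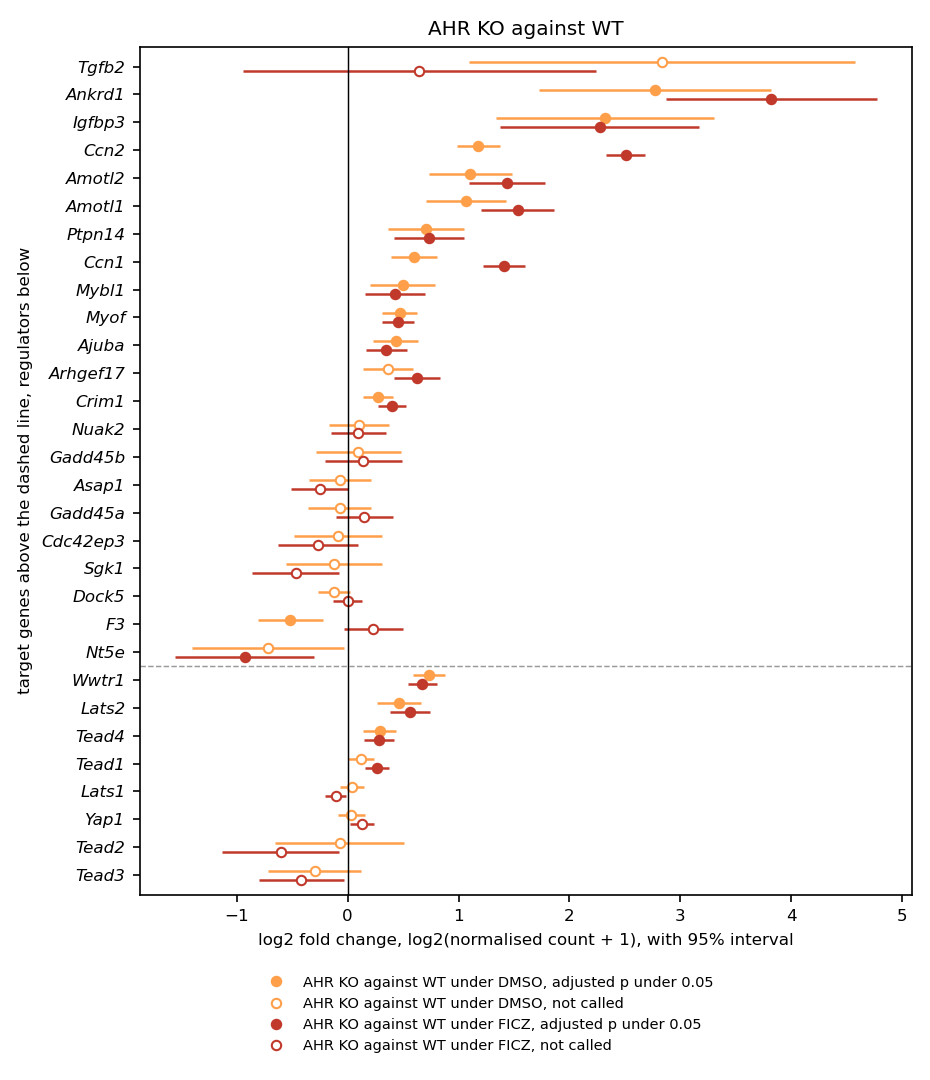
Points are limma log2 differences of AHR KO against WT under DMSO (orange) and FICZ (red) for the 30 tested members, bars are 95% intervals, and filled points were called at an adjusted p below 0.05. From Ankrd1 to Crim1 the called points lie to the right of 0, F3 and Nt5e have called points to the left, and Wwtr1 has the largest difference among the regulators.

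The other called targets, F3 and Nt5e, went the other way in 1 treatment each. F3 encodes tissue factor, the membrane protein that starts coagulation. Its values were 7062 and 5324 in WT DMSO, 3119.8, 3703 and 3426 in WT FICZ, 4425 and 4146 in AHR KO DMSO, and 4391 and 3649 in AHR KO FICZ, so the WT DMSO pair stood above the other 7 libraries. Under DMSO it was lower in AHR KO (-0.52 ± 0.13 on the log2 scale, SE; limma adjusted p = 0.0366), and with FICZ the log2 difference was 0.23 (95% interval -0.04 to 0.50, adjusted p = 0.208). The DMSO call was lost without WT DMSO replicate 2, AHR KO DMSO replicate 1, AHR KO DMSO replicate 3 or WT FICZ replicate 3. It was also lost with no filter on low values. Over all alternatives this log2 difference lay between -0.721 and -0.314. Nt5e, the surface enzyme CD73 that makes adenosine, was at 138 and 148 in WT DMSO, 80.2, 152 and 133 in WT FICZ, 77.8 and 96.6 in AHR KO DMSO, and 77.2 and 48.6 in AHR KO FICZ. The AHR KO libraries were below the WT libraries within each treatment, though WT FICZ replicate 1 reached into their range. With FICZ its log2 difference was -0.93 ± 0.28 (SE; limma adjusted p = 0.0417), and this call held under only 10 of 21 alternatives, with 7 of the 9 single libraries each able to end it when left out. The exceptions were WT FICZ replicate 1 and AHR KO FICZ replicate 1.

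The second comparison asked whether the ligand changed the same genes. In WT organoids FICZ lowered 3 of the 22 tested targets (Ccn1, Ccn2 and F3) and raised 1 (Ajuba). That is 18.2% of the tested targets, while 30.8% of all genes tested were called (15.1% higher and 15.7% lower). The count was 7 in place of 4 with quantile normalization or without WT FICZ replicate 1. The median log2 change was -0.10 for the targets and -0.01 for all genes. Ccn2 fell by 54.9% from its WT DMSO mean (log2 change -1.15 ± 0.08, SE; limma adjusted p = 3.12e-05) and Ccn1 by 38.6% (-0.70 ± 0.09; adjusted p = 0.000436). In both genes the 3 FICZ libraries of WT were below its DMSO libraries. F3 changed by -0.85 ± 0.12 on the log2 scale (limma adjusted p = 0.000898), also without overlap. Ajuba went up 1.34-fold in the ratio of means (0.42 ± 0.08 on the log2 scale; limma adjusted p = 0.00462). This last call was lost when a trend with GC content and gene length was removed (log2 change 0.15), and Arhgef17 then turned from 0.02 to -0.339 and was called (limma adjusted p = 0.0108). A further 5 targets came near the threshold and were not called: Ankrd1 (log2 change -1.24, limma adjusted p = 0.0502), Amotl2 (-0.43, 0.0577), Mybl1 (-0.33, 0.062), Tgfb2 (1.95, 0.0624) and Nuak2 (0.30, 0.0668).

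**Figure D3:**
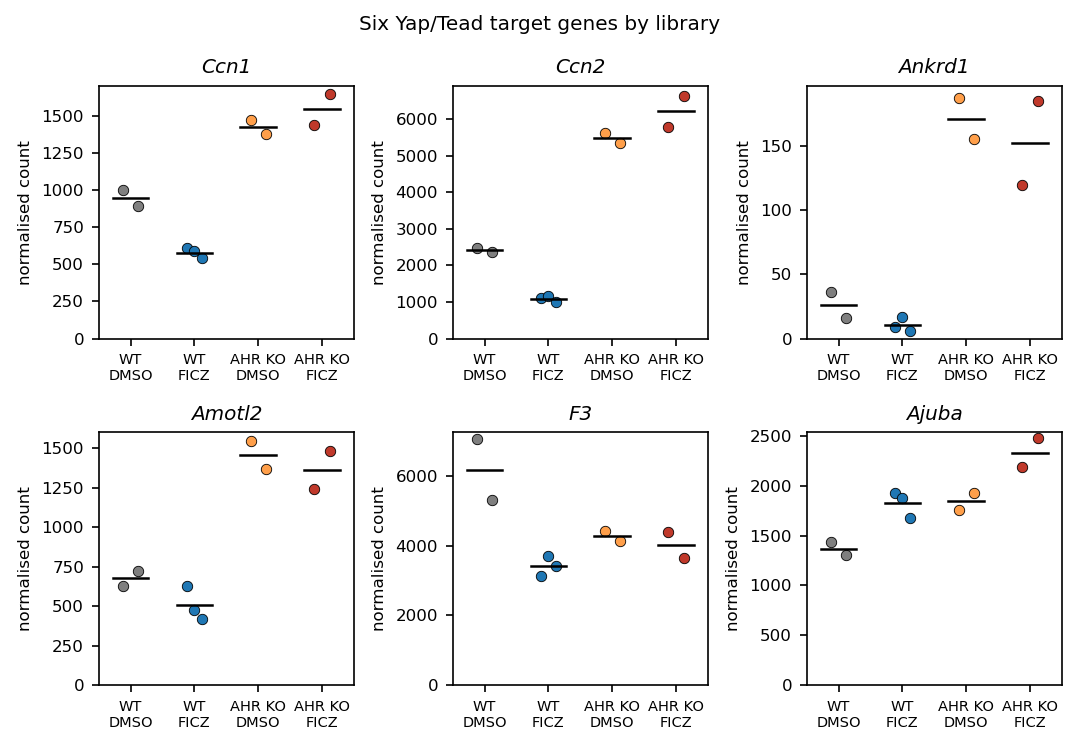
Points are the normalised counts of 6 target genes in each library (linear axes from 0), and lines are group means of 2 or 3 libraries. Ccn1, Ccn2 and F3 are lower with FICZ in WT (blue) than with DMSO (grey), while their AHR KO points (orange, red) lie closer together, and Ajuba is higher with FICZ in both genotypes.

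In AHR KO organoids only Ajuba among the 22 targets was called for FICZ (0.34 ± 0.09 on the log2 scale, SE; limma adjusted p = 0.0301), while 19.7% of all genes tested were called, 10.2% higher and 9.48% lower. Its 2 FICZ libraries lay above its 2 DMSO libraries, and the call was lost without AHR KO DMSO replicate 1, AHR KO DMSO replicate 3 or AHR KO FICZ replicate 3. It was also lost with no filter on low values and once the GC and length trend was taken out, which brought the log2 change down to as little as 0.04 (adjusted p up to 0.864 over all alternatives). Ccn2 was at 1.13 times and Ccn1 at 1.08 times their DMSO means, with log2 changes of 0.18 (95% interval -0.02 to 0.37) and 0.11 (-0.10 to 0.32). For F3 the log2 change was -0.10 (-0.39 to 0.20). The median over the tested targets was -0.03.

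The difference between the FICZ changes of the 2 genotypes was then tested directly. It was called for Ccn2 (-1.33 ± 0.12 on the log2 scale, SE; limma adjusted p = 0.000575) and Ccn1 (-0.81 ± 0.13; adjusted p = 0.0222), and for no other target, beside 0.447% of all genes tested (57 genes), with 0.0706% (9 genes) more negative in WT. Ccn2 was called under each of the 20 alternatives that could test it. The Ccn1 call was lost without WT DMSO replicate 2, AHR KO DMSO replicate 1, AHR KO DMSO replicate 3, WT FICZ replicate 3 or AHR KO FICZ replicate 3. It was also lost with a block for replicate number, with or without the GC and length trend removed. Over all alternatives the Ccn1 difference lay between -0.909 and -0.717 on the log2 scale. For F3 the difference was -0.75 (95% interval -1.15 to -0.35) with an adjusted p of 0.173, for Ankrd1 -1.05 (-2.46 to 0.36, adjusted p = 0.801) and for Ajuba 0.08 (-0.19 to 0.36, adjusted p = 0.955). The Ankrd1 interval allows both no difference and one as large as that of Ccn2. The FICZ and genotype comparisons share the WT groups, so that a high value in a WT DMSO library lowers both the FICZ change in WT and the genotype difference under DMSO.

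**Figure D4:**
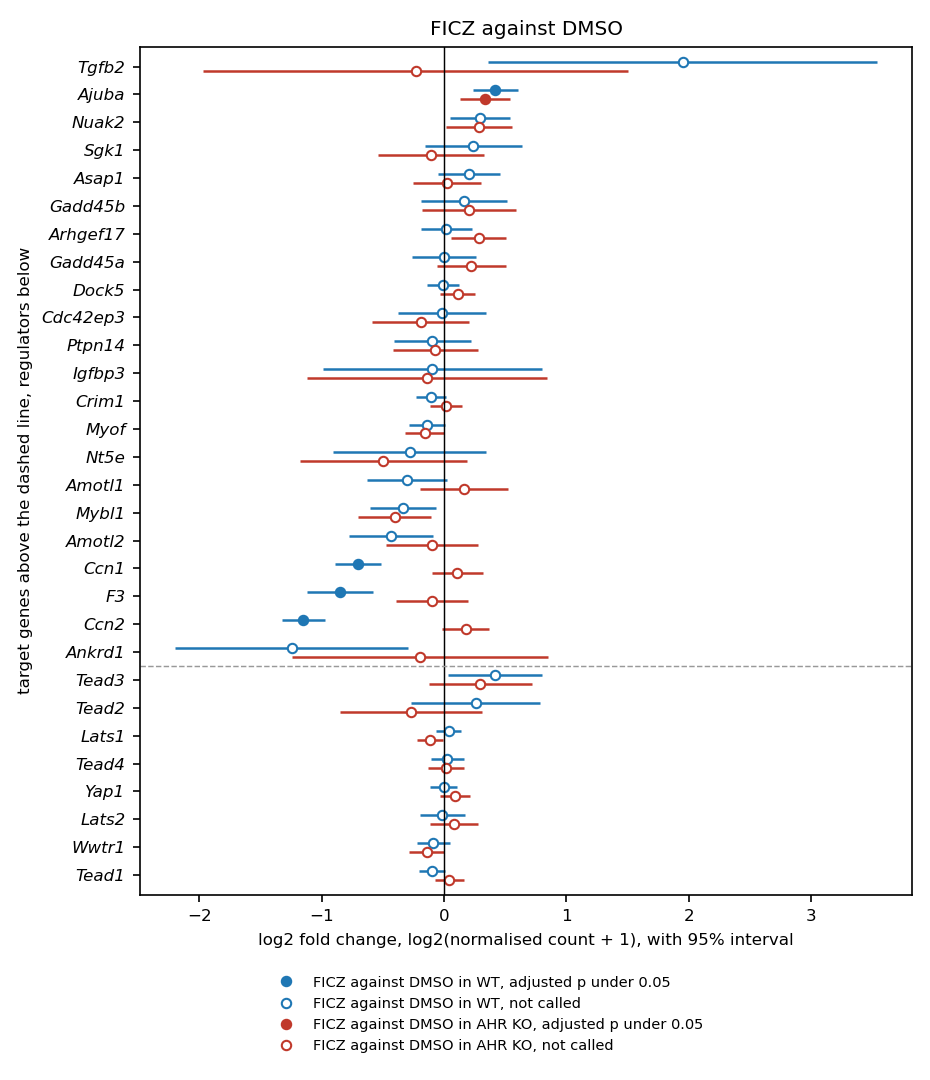
Points are limma log2 changes with FICZ against DMSO in WT (blue) and AHR KO (red) for the 30 tested members, bars are 95% intervals, and filled points were called. Ccn1, Ccn2 and F3 have filled blue points left of 0 with open red points near 0, and Ajuba is filled in both genotypes.

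Of the 22 tested targets, 8 were called in none of the 5 contrasts. They were Nuak2 and Sgk1, which encode kinases, the stress response genes Gadd45a and Gadd45b, Dock5 and Asap1, regulators of small GTPases, the Cdc42 effector Cdc42ep3, and the growth factor gene Tgfb2. Between 0.447% and 30.8% of all genes tested were called in a single contrast. The share of all genes called in none was not computed, so the count of 8 only names these targets. Dock5 ranged from 4937 to 5759.6 over the 9 libraries. Between genotypes its log2 differences were -0.12 (95% interval -0.26 to 0.03) and 0.001 (-0.13 to 0.13). Gadd45a ranged from 228 to 289 and Gadd45b from 130.4 to 194. Sgk1 ran from 262 to 450.1 and was lower in AHR KO with FICZ by a log2 difference of -0.47 (limma adjusted p = 0.0923). Nuak2 ranged from 443 to 634, Asap1 from 1099.5 to 1567 and Cdc42ep3 from 84.9 to 128. Tgfb2 was near the floor, at 2.08 and 0.67 in WT DMSO, 2.36, 10.2 and 17.05 in WT FICZ, 21.7 and 10.5 in AHR KO DMSO, and 15.05 and 10.8 in AHR KO FICZ. WT DMSO was the lowest group, but 1 WT FICZ library was nearly as low, and the genotype difference under DMSO missed the threshold (log2 difference 2.83, 95% interval 1.09 to 4.57, limma adjusted p = 0.0504). Both WT groups had a mean below 10.

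The 5 targets under the filter were low in each library and were not tested. The receptor tyrosine kinase gene Axl ranged from 0 to 18.2 (mean 5.25), the GTPase-activating protein gene Dlc1 from 2.00 to 14.3, and Fjx1 from 3.90 to 12.0. The mesenchymal transcription factor gene Foxf2 stayed between 0 and 2.92 and Rbms3, an RNA-binding protein gene, between 0 and 2.02. The 3 WT FICZ libraries had 0.47, 0 and 0 for Axl and the WT DMSO libraries 10.6 and 0.41. The AHR KO libraries had 18.2 and 4.63 with DMSO and 3.56 and 9.31 with FICZ. WT DMSO overlapped both AHR KO groups, and WT FICZ lay below them.

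Levels can be compared between genes only per length of transcript. Per kb of annotated exon, F3 had the highest mean level among the targets in WT DMSO (2450 normalised counts per kb), ahead of Ccn2 (845), Myof (842), Ccn1 (468), Dock5 (454) and Ajuba (375). In AHR KO DMSO, Ccn2 came first with 1910, followed by F3 with 1700, Myof with 1160 and Ccn1 with 708. Ankrd1 per kb was 9.01 in WT DMSO and 59.2 in AHR KO DMSO, so it remained far below Ccn2 in both genotypes although its genotype difference was wider. Igfbp3 per kb was 3.02 and 16.4.

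The regulators were expressed in all libraries, and none was called for FICZ. In WT 0 of 8 were called (1 at an unadjusted p below 0.05, limma), in AHR KO 0 of 8 (1 at an unadjusted p below 0.05) and for the difference between genotypes 0 of 8 (1 at an unadjusted p below 0.05), beside 30.8%, 19.7% and 0.447% of all genes tested. Once the GC and length trend was taken out, 2 regulators were called for FICZ in WT, Lats1 (0.157 on the log2 scale, limma adjusted p = 0.0277) and Tead4, which turned from 0.03 to -0.239 (adjusted p = 0.026). Between genotypes, 3 of 8 were called higher in AHR KO under DMSO (Wwtr1, Tead4 and Lats2) and 4 of 8 with FICZ (the same 3 and Tead1), with none lower, beside 4.21% and 9.48% of all genes called higher. For those 4 genes all AHR KO libraries lay above all WT libraries, an order found in 7.76% of all genes. The count under DMSO fell to 1 without WT DMSO replicate 2 or AHR KO DMSO replicate 1.

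Wwtr1, which encodes TAZ, differed most. It was at 841 and 794 in WT DMSO, 762, 794 and 754 in WT FICZ, 1359 and 1355 in AHR KO DMSO, and 1214 and 1245 in AHR KO FICZ. The lowest AHR KO library was well above the highest WT library, with a ratio of means of 1.66 under DMSO and 1.60 with FICZ (log2 differences 0.73 ± 0.07 and 0.67 ± 0.06, SE; limma adjusted p = 0.000182 and 4.4e-05), and both calls were kept under each of 21 alternatives. Its paralogue Yap1 was at 3046 and 2946 in WT DMSO, 2898, 3098 and 2974 in WT FICZ, 3012 and 3126 in AHR KO DMSO, and 3247 and 3298 in AHR KO FICZ. Yap1 overlapped between genotypes under DMSO (log2 difference 0.03, 95% interval -0.09 to 0.16), and with FICZ the difference was 0.13 (0.02 to 0.24; limma adjusted p = 0.0943). Per kb of exon, Yap1 and Wwtr1 had mean levels of 324 and 171 in WT DMSO and of 332 and 284 in AHR KO DMSO.

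Of the 4 TEAD factors, which carry the DNA contact of the complex, Tead4 was at 878 and 875 in WT DMSO, 896, 876 and 905 in WT FICZ, 1109 and 1036 in AHR KO DMSO, and 1062 and 1109.5 in AHR KO FICZ. The groups of the 2 genotypes were apart, by 0.29 ± 0.07 (log2, SE; limma adjusted p = 0.023) under DMSO and 0.28 ± 0.06 (adjusted p = 0.00878) with FICZ. Leaving out any of the 4 DMSO libraries ended the call under DMSO, as did a block for replicate number, with or without the GC and length trend removed. This log2 difference lay between 0.241 and 0.340 over all alternatives. Leaving out AHR KO FICZ replicate 3 ended the Tead4 call with FICZ. Tead1 was at 3695 and 3675 in WT DMSO, 3510.0, 3361 and 3476 in WT FICZ, 4149 and 3880.5 in AHR KO DMSO, and 4118 and 4163 in AHR KO FICZ. It was called with FICZ (0.26 ± 0.05 on the log2 scale, SE; limma adjusted p = 0.00385), and the DMSO difference was 0.12 (95% interval 0.004 to 0.24, adjusted p = 0.194). Tead2 ranged from 122 to 253 and Tead3 from 472 to 947, and neither was called. Their log2 differences between AHR KO and WT with FICZ were -0.60 (95% interval -1.13 to -0.07) and -0.42 (-0.80 to -0.03). Per kb in WT DMSO, Tead1 (272) and Tead4 (244) led Tead3 (88.9) and Tead2 (36.8).

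The kinase gene Lats2, itself a reported target of YAP, was at 419 and 447 in WT DMSO, 419.4, 451 and 416 in WT FICZ, 628 and 570.0 in AHR KO DMSO, and 620.4 and 646 in AHR KO FICZ. The AHR KO libraries did not overlap with WT, with ratios of 1.38 under DMSO and 1.48 with FICZ (limma adjusted p = 0.0102 and 0.000966). The DMSO call was lost without WT DMSO replicate 2 or AHR KO DMSO replicate 1 (adjusted p up to 0.0939). Lats1 ranged from 3663 to 4046 and was not called, with log2 differences of 0.04 (95% interval -0.07 to 0.15) and -0.11 (-0.21 to -0.01). Lats1 was the more abundant of the pair, with 531 normalised counts per kb of exon in WT DMSO against 62.1 for Lats2.

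**Figure D5:**
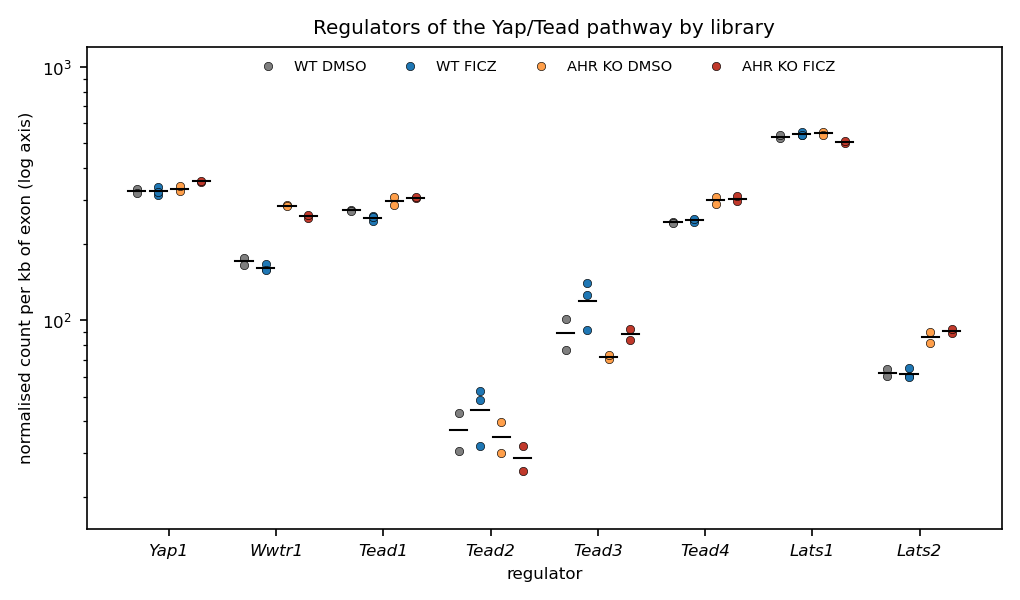
Points are normalised counts per kb of annotated exon (log axis) for the 8 regulators in each of the 9 libraries, and lines are group means. Wwtr1 and Lats2 show AHR KO points (orange, red) above the WT points (grey, blue), Tead4 and Tead1 do so by a smaller margin, and Yap1 and Lats1 stay level across groups.

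Among 25 other genes of the Hippo pathway, 23 were tested (Dchs1 and Vgll1 were under the filter). Under DMSO 3 were called higher in AHR KO and none lower: Frmd6, an upstream activator of the kinases (log2 difference 0.72 ± 0.09, SE; limma adjusted p = 0.000941), the tight junction gene Tjp1 (0.32 ± 0.06, 0.00696) and the KIBRA family gene Wwc2 (0.44 ± 0.10, 0.0187). With FICZ 3 were higher and 3 lower. These counts are 13.0% and 26.1% of those tested, near the 9.05% and 20.0% of all genes. Among those called with FICZ were Frmd6 (0.91 ± 0.08), Map4k4, a kinase that acts on LATS (0.48 ± 0.10), Wwc2 (0.42 ± 0.09) and the atypical cadherin gene Fat1 (-0.43 ± 0.10), with limma adjusted p between 4.05e-05 and 0.012. FICZ changed 10 of them in WT, 6 higher and 4 lower, and 8 in AHR KO, 4 in each direction, which is 43.5% and 34.8% of those tested beside the 30.8% and 19.7% of all genes. Ywhae, a 14-3-3 protein gene, fell in both genotypes (-0.55 ± 0.07 in WT and -0.52 ± 0.08 in AHR KO on the log2 scale, SE). Fat1 rose in WT (0.62 ± 0.10), while the kinase gene Stk3 (-0.31 ± 0.07) fell. Both went the same way in AHR KO. There Fat1 was at 20480 and 18808 with DMSO and at 24174 and 25533 with FICZ. Stk3 changed by -0.227 on the log2 scale in AHR KO and was not called (limma adjusted p = 0.0593). The LIM protein genes Limd1 (0.19 in WT and 0.28 in AHR KO) and Wtip (0.60 and 0.68) and the kinase gene Taok2 (0.35 and 0.39) rose in both genotypes. None differed in its FICZ change between genotypes by limma (4 at an unadjusted p below 0.05).

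Of 30 further genes reported as linked to YAP, 25 were tested. This list, like the others, was written with earlier results of these data known. It holds Sox9 and Il33, which the paper named as repressed by AHR from its FICZ experiment. The shares below therefore describe the list and are no test of it. Under DMSO 5 were higher and 4 lower in AHR KO, and with FICZ 10 were higher and 6 lower, which is 36.0% and 64.0% of those tested beside 9.05% and 20.0% of all genes. Ccdc80 is counted as higher under DMSO although it passed the filter only through its AHR KO values (means of 8.03 in WT DMSO and 8.06 in WT FICZ). Il33, a cytokine released by injured epithelium, had the lowest adjusted p of these genes in both genotype comparisons, with 584 and 512 in WT DMSO, 248, 358 and 321 in WT FICZ, 2098 and 2052 in AHR KO DMSO, and 1675 and 1889 in AHR KO FICZ. Its log2 differences were 1.92 ± 0.15 (SE; limma adjusted p = 7.74e-05) and 2.54 ± 0.14 (adjusted p = 2.14e-06). Clu, clusterin, a marker of regenerating stem cells, was higher by 1.22 ± 0.16 and 1.35 ± 0.15, and Thbs1, a matricellular protein gene, by 0.80 ± 0.10 under DMSO (limma adjusted p between 0.000143 and 0.00146). Gas6, the ligand of AXL, was lower under DMSO (-1.13 ± 0.16 on the log2 scale, SE; limma adjusted p = 0.0021). FICZ in WT raised 4 and lowered 5 of these genes, and in AHR KO it raised 1 (Itgb5) and lowered 1 (Ddah1), which is 36.0% and 8.0% of those tested beside 30.8% and 19.7% of all genes. Sox9, a progenitor transcription factor gene, was at 3696 and 3551 in WT DMSO and at 2186, 1665 and 1951 in WT FICZ, while the AHR KO values were 3984 and 3877 with DMSO and 4149 and 4279 with FICZ. Its fall with FICZ in WT differed from the change in AHR KO (-1.01 ± 0.14 on the log2 scale, SE; limma adjusted p = 0.0113), the direction seen for Ccn1 and Ccn2. The EGF family ligand gene Ereg differed in the other direction (0.90 ± 0.10, adjusted p = 0.00362), with 1420.5 and 1251 in WT DMSO, 2233.4, 2233.6 and 2232.4 in WT FICZ, 1036 and 1147 in AHR KO DMSO, and 966 and 990.0 in AHR KO FICZ. FICZ also lowered Il33 in WT (-0.84 ± 0.14).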

How the data were processed

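RNA-seq of total RNA was carried out by the authors on 9 libraries of colon organoids (TruSeq Stranded with RiboZero Gold per the study's methods). The deposited table holds a signal per Ensembl gene, named by the authors as RSEM normalised data: normalised counts, which are not whole numbers. The submitters' processing notes name GRCm38, STAR 2.5.2a, RSEM 1.2.31 and DESeq2 1.16.1 without their roles, whereas the methods describe counting with summarizeOverlaps. The annotation release is not given in the sources used here. Between 56.1% and 65.1% of low values lay within 0.05 of a whole multiple of the library's step, so whole reads could not be recovered and no count model was run.

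Symbols, exon lengths and coordinates came from GENCODE M21 (99.3% of identifiers matched). Values were tested with limma 3.58.1 in R 4.3.3 (eBayes with trend) on log2(value + 1), with a pseudocount of 1, for genes with a mean of 10 or more (12741 of 48795). The 9 libraries entered 1 fit with 4 groups, followed by 5 contrasts. The spread is that between libraries described as biological replicates, and fold changes understate the change of low genes. The pipeline was tested on simulated data.

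The members, the other lists and the tests were chosen with earlier results of these data known. All 35 members were described, called ones with the value in each library. Of both other lists, up to 4 called genes with the lowest adjusted p were named per contrast, apart from a few genes that are not reported here. The alternatives were other pseudocounts, filters, scalings and eBayes settings, only the groups compared, replicate blocks, removal of a GC and length trend, and leaving out each library.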

Additional observations from a re-analysis of the deposited data

Results flagged for a closer look

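The results for Ccn1 and Ccn2 stood out because the FICZ change differed between WT and AHR KO organoids by a test of that difference. For Ccn2 the log2 change in WT less the log2 change in AHR KO was -1.327 (limma adjusted p = 0.000575), with WT FICZ libraries below WT DMSO libraries and AHR KO FICZ libraries above AHR KO DMSO libraries. For Ccn1 it was -0.813 (limma adjusted p = 0.0222), and this call was lost when 1 of 5 libraries was left out: WT DMSO replicate 2, AHR KO DMSO replicate 1, AHR KO DMSO replicate 3, WT FICZ replicate 3 or AHR KO FICZ replicate 3. It was also lost with a block for replicate number, with or without the GC and length trend removed. The number of libraries a group (2 or 3) was too small to test single libraries as outliers.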

How the results depend on the processing

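Of the 150 pairs of a tested member and a contrast, 39 were called, and 22 of these stayed called under each of the 21 alternatives that could test them. Targets called for FICZ in WT numbered 4 and became 7 with quantile normalization, 7 with the replicate block (number as a fixed term) and 4 to 7 on leaving out 1 library, the highest without WT FICZ replicate 1. Regulators called there went from 0 to 2 once the GC and length trend was taken out (Tead4 and Lats1) and to between 0 and 1 without 1 library (Tead3, without WT FICZ replicate 2). Targets called for FICZ in AHR KO went from 1 to 0 with no filter on low values, to 2 with a filter at a mean of 100, with quantile normalization or with only the groups compared, to 0 once the GC and length trend was taken out, with or without the replicate block, and to between 0 and 3 without 1 library. They were 0 without AHR KO DMSO replicate 1, AHR KO DMSO replicate 3 or AHR KO FICZ replicate 3, 3 without WT FICZ replicate 2 and 2 without WT FICZ replicate 3. The interaction called 2 targets, and 1 (Ccn2, with Ccn1 lost) with the replicate block, 1 (again Ccn2) with the GC and length trend removed and the replicate block, and 1 to 2 without 1 library. On leaving out 1 library, the 12 targets called between genotypes under DMSO became 6 to 13 and the 3 regulators 1 to 3: 6 targets without AHR KO DMSO replicate 1 or AHR KO DMSO replicate 3, 7 without WT DMSO replicate 2, and 1 regulator without WT DMSO replicate 2 or AHR KO DMSO replicate 1. With FICZ, leaving out 1 library turned 13 targets into 9 to 13 and 4 regulators into 3 to 6. Leaving out a DMSO or an AHR KO FICZ library leaves 1 in its group, assumed to vary like the rest. Once the GC and length trend was taken out, Arhgef17 changed sign for FICZ in WT and was called (-0.339, adjusted p = 0.0108; -0.313, adjusted p = 0.0164, with the replicate block), as was Tead4 (-0.239, adjusted p = 0.026). The cause was not tested. Uncalled values changed sign in 106 of 2264 comparisons.

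Deviations of same-numbered libraries from their group means correlated at 0.042 and 0.05 in WT and 0.035 in AHR KO over 12741 genes. With 2 libraries in each AHR KO group, the check there comes to 1 value with either sign (0.035 or -0.035). It therefore cannot show whether same-numbered libraries were paired, and the labels do not say. The numbers were not taken as pairs, and the block was not used in the fit reported. Under the block as a fixed term, 6 of the 39 calls were lost and 4 were gained. Those lost were the genotype calls of Crim1, Mybl1, Ptpn14 and Tead4 under DMSO and of Nt5e with FICZ, and the Ccn1 interaction. With 2 to 3 libraries a group and low values for Ankrd1, Igfbp3 and Tgfb2, wide intervals limit what these genes can show.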
